A study of Mus musculus with 8 samples.

Results

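The complement genes C1qa, C1qb, C1qc, C1s1, C3, C4b, Cfb, Serping1 and C3ar1 were followed in mouse tumour cells sorted by the activity of a promoter of a DNA replication gene. The members were all probe sets that the platform annotation maps to these 9 symbols, which gave 12 probe sets among 45101 on the array. Of the 9 genes, 7 had a probe set of their own symbol among the 18193 genes named on the array, and 6 of these 7 were bright enough to be tested. Cfb lay below the signal filter. C4b was represented by a probe set annotated to both C4a and C4b, which are near-identical copies, so its signal could come from either gene. C3 was not analysed here.

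Both tumour lines were of the mouse, 1 a lung carcinoma named after Lewis (LLC) and 1 a carcinoma of the colon, colon26. Each line stably carried enhanced green fluorescent protein (EGFP) under the mouse promoter of PSF1, the product of Gins1 and a subunit of the GINS complex of the replication fork. Tumours grew under the skin of mice and were taken 4 weeks after inoculation for LLC and 2 weeks for colon26, then dissociated and sorted by fluorescence. The 4 groups were LLC EGFP-high, LLC EGFP-low, colon26 EGFP-high and colon26 EGFP-low cells, with 2 arrays each. All groups carried the reporter construct, and none was treated. Tumour age differed with the line, so line and age cannot be told apart. The reporter was in the inoculated cells, and the labels do not say whether cells of the host were removed before the sort, nor whether the lines were single clones, nor which mouse strain was used. The titles call the replicates biological, but no label says whether they came from separate tumours. The p-values thus measure the spread among these arrays, which may not be that among tumours.

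Complement is a cascade of plasma proteins that tags cells and debris for removal. In the classical pathway C1q binds its target, the proteases C1r and C1s bound to it cut C4 and C2, and the resulting convertase cuts C3. Factor B drives the alternative pathway, C1 inhibitor stops C1r and C1s, and the C3a receptor senses a fragment of C3. Much complement is made by the liver, but tissue macrophages are known as a main source of C1q, and fibroblasts make C1r, C1s and C3.

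Values are the authors' log2 signals, and a change is EGFP-high minus EGFP-low on that scale. A high and a low array that share line and number formed a pair. The words rose and fell are kept for genes with a limma adjusted p under 0.05 in the model that blocks on pairs. The median 3′ minus 5′ signal of 4 control transcripts, a measure of RNA and labelling quality, was between 2.41 and 2.70 on the arrays numbered 1 and between −0.01 and 0.35 on those numbered 2, so the numbers differed within every group. Gins1, the check of the sort, rose by 1.28 in LLC (limma adjusted p = 0.0033) and by 1.07 in colon26 (adjusted p = 0.017). Its LLC call was lost when the LLC pair numbered 2 was left out (adjusted p = 0.052), and its colon26 call when either colon26 pair was (0.053 and 0.35). Between 10565 and 11869 genes per array lay above a log2 signal of 5, the level used as the filter, and folds of genes that lie below it in 1 group are compressed by background.

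**Figure D1:**
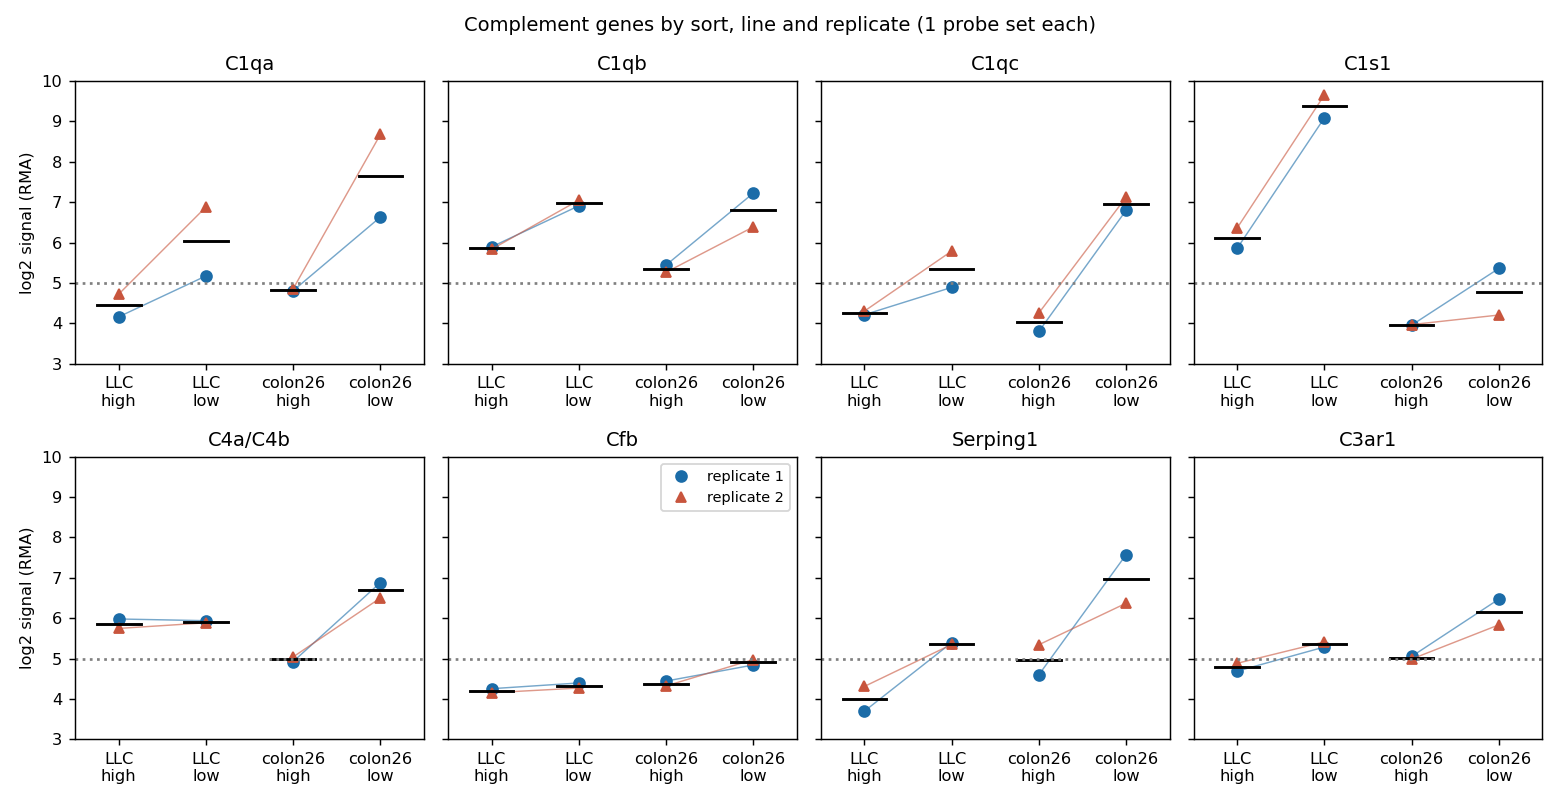
Log2 signal (vertical axis) of 8 complement probe sets, 1 panel each, in EGFP-high and EGFP-low cells of LLC and colon26 (horizontal axis). Circles are replicate 1, triangles replicate 2, thin lines join pairs, bars are group means (n = 2), and the dotted line marks the filter at 5; C1s1 is highest in LLC low cells (9.09 and 9.65), and C1qc in colon26 low cells (6.80 and 7.12).

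The 3 chains of C1q were lower in EGFP-high than in EGFP-low cells of both lines. C1qc, the C chain, had log2 signals of 4.21 and 4.30 in LLC high cells, against 4.89 and 5.79 in LLC low cells, and of 3.80 and 4.25 in colon26 high cells, against 6.80 and 7.12 in colon26 low cells. High and low arrays did not overlap in either line, all high arrays lay under the filter, and the colon26 low arrays stood above the other 6. C1qc fell in both lines, with a change of −1.08 in LLC (SE 0.22, 2.12-fold lower, limma adjusted p = 0.010) and −2.93 in colon26 (SE 0.22, 7.64-fold lower, adjusted p = 4.1e-05).

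C1qa, the A chain, had 4.16 and 4.72 in LLC high cells, against 5.17 and 6.88 in LLC low cells, and 4.81 and 4.86 in colon26 high cells, against 6.63 and 8.68 in colon26 low cells. The low arrays numbered 2 were brighter than those numbered 1 in both lines, by more than the smaller of the high minus low differences, while the groups did not overlap. Its pair changes were −1.01 and −2.16 in LLC and −1.82 and −3.82 in colon26, the pair numbered 2 being larger each time. C1qa fell, with a change of −1.59 in LLC (SE 0.40, 3.0-fold lower, adjusted p = 0.030) and −2.82 in colon26 (SE 0.40, 7.07-fold lower, adjusted p = 0.0035).

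C1qb, the B chain, was read by 3 probe sets, all of which gave lower signals in high than in low cells in all 4 pairs. The brightest, 1434366_x_at, whose suffix marks probes that can also match other transcripts, had 5.89 and 5.83 in LLC high cells, against 6.91 and 7.05 in LLC low cells, and 5.44 and 5.26 in colon26 high cells, against 7.22 and 6.39 in colon26 low cells. By this probe set C1qb fell, with a change of −1.12 in LLC (SE 0.21, 2.17-fold lower, adjusted p = 0.0066) and −1.45 in colon26 (SE 0.21, 2.74-fold lower, adjusted p = 0.0034). The other probe sets gave larger changes with every probe set fitted as its own unit: −1.56 (adjusted p = 0.0098) in LLC and −2.79 (adjusted p = 0.0011) in colon26 for 1417063_at, and −1.99 (0.0014) and −2.75 (3.3e-04) for 1437726_x_at. They disagreed on the replicates of colon26 low cells, where 1417063_at was higher on the array numbered 2 (6.67 and 7.79) and 1437726_x_at on the array numbered 1 (7.06 and 5.76).

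Some of these calls were lost when 1 pair was left out. Such a fit has 1 array in each group of that line, so a loss need not mean that the pair carried the call. The colon26 pair changes of C1qc, for example, were alike (−3.00 and −2.87). Without the LLC pair numbered 2, the LLC calls of C1qa (−1.01, adjusted p = 0.28), C1qb (−1.02, 0.14) and C1qc (−0.68, 0.54) were lost, and without the colon26 pair numbered 2 so were the colon26 calls of C1qa (−1.82, 0.34), C1qb (−1.78, 0.066) and C1qc (−3.0, 0.077). Without the colon26 pair numbered 1 that of C1qb was lost as well (−1.12, 0.067), and without either colon26 pair, whose spread enters the same model, so were the LLC calls of C1qa (adjusted p = 0.059) and C1qc (0.070).

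The genes of the C1q chains neighbour each other, and the RefSeq promoter table (mouse build GRCm38.p6) held C1qb and C1qc on the minus strand of chromosome 4. Their 250 bases before the start site are shown because these chains fell together. Capitals mark the letters GAGGAA, a core sequence bound by the myeloid factor PU.1, searched on both strands. Its match begins 30 bases before the start in C1qb and, on the reverse strand, 193 bases before it in C1qc. It occurs in 23.3% of 32851 promoters of this length.
C1qb, chr4:136886201-136886450: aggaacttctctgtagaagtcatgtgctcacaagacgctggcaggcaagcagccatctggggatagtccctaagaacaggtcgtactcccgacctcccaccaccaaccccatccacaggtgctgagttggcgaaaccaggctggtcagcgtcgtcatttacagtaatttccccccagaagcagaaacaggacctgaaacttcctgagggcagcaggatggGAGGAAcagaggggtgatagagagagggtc
C1qc, chr4:136892915-136893164: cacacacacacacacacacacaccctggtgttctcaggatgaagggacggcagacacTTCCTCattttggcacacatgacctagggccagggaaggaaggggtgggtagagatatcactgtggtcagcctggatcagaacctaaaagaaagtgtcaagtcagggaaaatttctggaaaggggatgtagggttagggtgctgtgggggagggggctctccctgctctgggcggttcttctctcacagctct

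**Figure D2:**
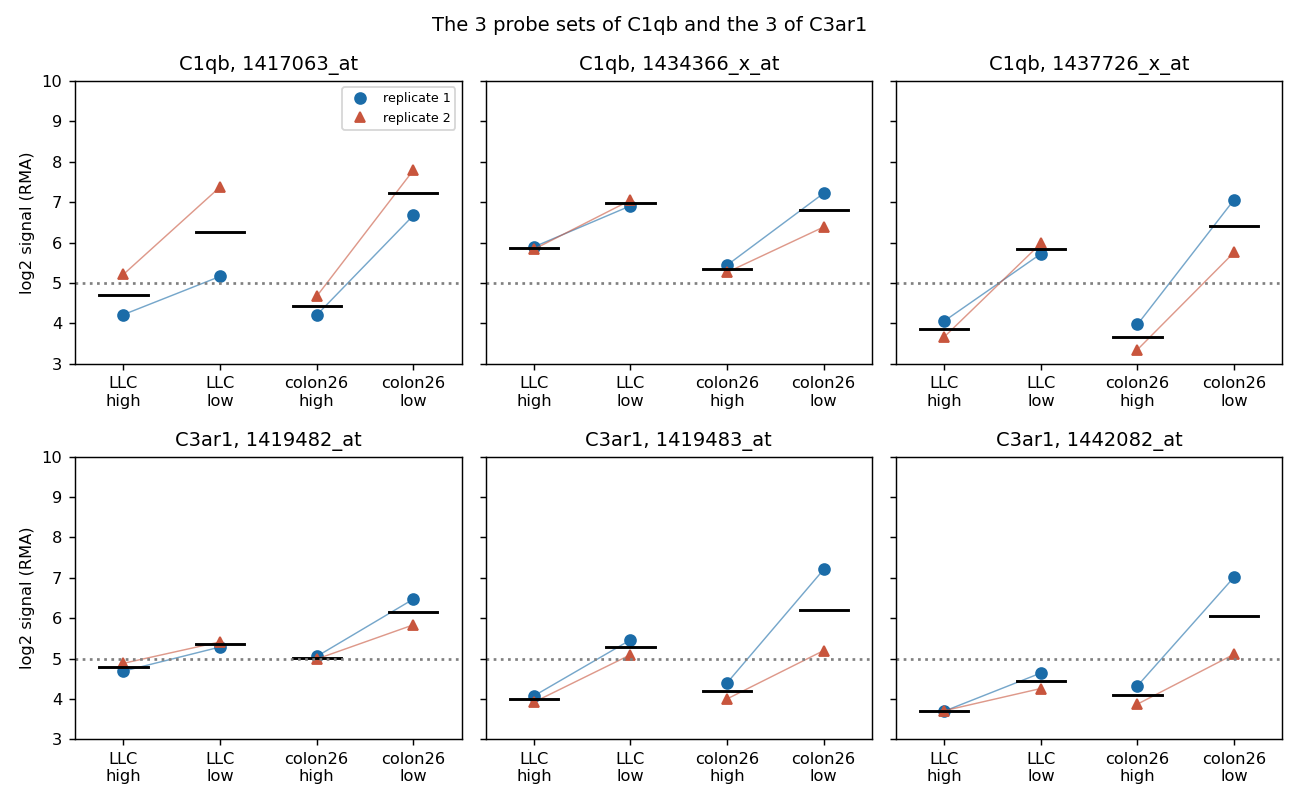
Log2 signal (vertical axis) of the 3 probe sets of C1qb (top) and the 3 of C3ar1 (bottom) in the 4 groups (horizontal axis), with circles for replicate 1, triangles for replicate 2, lines joining pairs, bars for means (n = 2) and the filter dotted at 5. Every line slopes upward to the low cells, while the probe sets of C1qb disagree on which colon26 low array is brighter.

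C1s1, the protease of the C1 complex that cuts C4 and C2, had the largest LLC change of the members. Its log2 signal was 5.86 and 6.36 in LLC high cells, against 9.09 and 9.65 in LLC low cells. In colon26 it was 3.96 and 3.97 in high cells, against 5.36 and 4.21 in low cells, so that 3 of the 4 colon26 arrays lay under 5. The groups overlapped in neither line, but the pair changes of −3.23 and −3.29 in LLC were alike, whereas those of −1.40 and −0.24 in colon26 were not. C1s1 fell in LLC, with a change of −3.26 (SE 0.25, 9.60-fold lower, limma adjusted p = 1.1e-04), a call kept without any 1 pair. The colon26 change of −0.82 did not pass (95% interval −1.38 to −0.26, adjusted p = 0.12). Its probe set may also read the close copy C1s2.

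The table held a pair of start sites for C1s1 on the minus strand of chromosome 6. The window of the upstream one is shown as that of the member with the largest LLC change. Capitals mark a match to the C/EBP letters TTGCNNAA on the reverse strand, beginning 242 bases before the start. These letters are in 9.56% of promoters. The window of the other start site, which overlaps this one, held no match to any motif searched.
C1s1, chr6:124542360-124542609: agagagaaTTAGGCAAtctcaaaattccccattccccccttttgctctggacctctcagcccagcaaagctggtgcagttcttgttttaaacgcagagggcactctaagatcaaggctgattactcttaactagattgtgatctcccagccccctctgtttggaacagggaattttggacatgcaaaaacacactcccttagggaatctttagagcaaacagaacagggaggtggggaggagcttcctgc

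Genes next to C1s1 in the classical pathway, taken from the wider complement list, had a like pattern. C1ra, the protease that activates C1s, had 5.73 and 6.42 in LLC high cells, against 8.20 and 8.97 in LLC low cells, and 4.18 and 4.61 in colon26 high cells, against 5.31 and 5.07 in colon26 low cells. It fell by 2.51 in LLC (SE 0.20, 5.70-fold lower, adjusted p = 1.2e-04), and its colon26 change of −0.79 did not pass (adjusted p = 0.066). C2, which C1s cuts to form the convertase, had 6.65 and 6.61 in LLC high cells, against 8.11 and 8.03 in LLC low cells, and 6.04 and 6.10 in colon26 high cells, against 6.30 and 5.90 in colon26 low cells. C2 fell by 1.43 in LLC (adjusted p = 0.0012), while in colon26 the groups overlapped (−0.03, 95% interval −0.45 to 0.39, adjusted p = 0.95).

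No test compared the C1q genes with C1s1 directly. Each gene was tested on its own for a difference between lines, with its colon26 change subtracted from that in LLC. For C1s1 this difference was −2.44 (SE 0.36, 95% interval −3.24 to −1.65, limma adjusted p = 0.013), the fall being larger in LLC. For C1qc it was 1.85 (SE 0.31, 1.17 to 2.53, adjusted p = 0.021), the fall being larger in colon26. The LLC low signals of C1qc, 4.89 and 5.79, lay near the filter, which limits the size of its LLC fall. C1ra and C2 had differences of −1.72 (adjusted p = 0.023) and −1.40 (0.035), on the side of C1s1. The differences of C1qa (1.24, −0.02 to 2.49, 0.36) and of C1qb (0.34, −0.31 to 0.98, 0.63) did not pass. Nor did those of the other C1qb probe sets as their own units, 1.24 for 1417063_at (adjusted p = 0.21) and 0.76 for 1437726_x_at (0.35). In all, 2 of the 6 members tested passed, C1s1 and C1qc, against 1.41% of all genes in either direction. Without either colon26 pair neither member passed: C1s1 then had −3.03 (adjusted p = 0.13) or −1.86 (0.23), and C1qc 1.79 (0.13) or 1.92 (0.35). Neither did C1ra or C2. C1qc was also lost when the LLC pair numbered 1 was left out (1.45, 0.078). With no filter C1qc (0.057), C1ra (0.057) and C2 (0.072) were lost. C1ra was lost when the LLC pair numbered 2 was left out (0.055), and C2 when either LLC pair was (0.11 and 0.16).

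**Figure D3:**
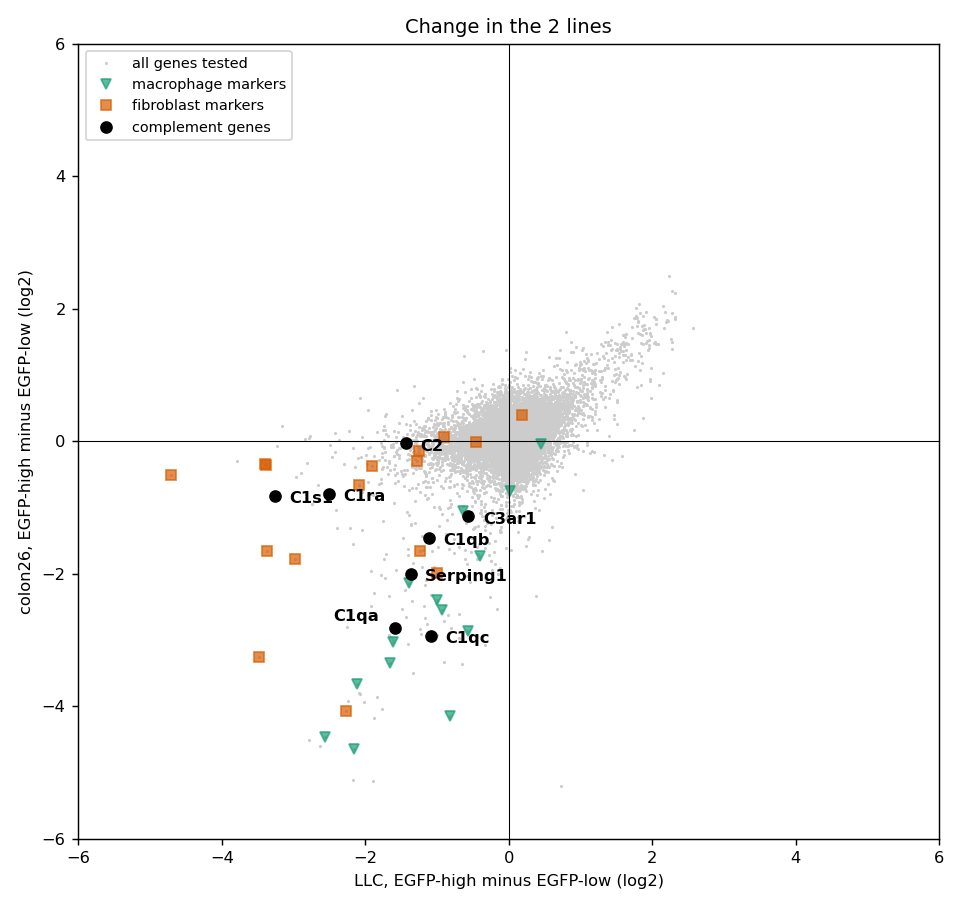
Change in colon26 (vertical axis) against change in LLC (horizontal axis), EGFP-high minus EGFP-low in log2 units, with 1 point per gene: grey for all 12177 tested genes, green triangles for macrophage markers, orange squares for fibroblast markers and black circles for 6 members and C1ra and C2. C1s1 (−3.26 and −0.82) and C1ra lie to the left near some orange squares, and C1qa and C1qc (−1.08 and −2.93) lie low near green triangles. C1qb (−1.12 and −1.45) lies beside the orange square of Fap (−1.23 and −1.65). The orange squares of Col5a2 (−2.27 and −4.06) and Postn (−3.48 and −3.25) also lie low.

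The shared C4a/C4b probe set, which reads the component cut by C1s and its close copy Slp, differed from C1s1. It had 5.98 and 5.75 in LLC high cells, against 5.94 and 5.89 in LLC low cells, and 4.93 and 5.04 in colon26 high cells, against 6.89 and 6.50 in colon26 low cells. High and low arrays overlapped in LLC and stood clearly apart in colon26. Fitted with each probe set as its own unit, it changed by −0.05 in LLC (95% interval −0.50 to 0.40, adjusted p = 0.93) and fell in colon26 (−1.71, SE 0.20, 3.27-fold lower, adjusted p = 0.0025). The difference between lines was 1.66 (SE 0.28, adjusted p = 0.037), a test that 0.656% of the 25626 probe sets passed in either direction. Without the colon26 pair numbered 1 or 2 the colon26 call (adjusted p = 0.091 and 0.10) and the difference (0.15 and 0.39) were lost. Between lines it was 0.88 higher in LLC in EGFP-high cells (adjusted p = 0.013) and 0.78 lower in LLC in EGFP-low cells (change −0.78, adjusted p = 0.017), where 33% and 41.8% of probe sets passed in either direction. The EGFP-high call was lost without either LLC high array (0.098 and 0.070) or the colon26 high array numbered 1 (0.12), and the EGFP-low call without either LLC low array (0.098 and 0.078) or the colon26 low array numbered 1 (0.057). As it names several genes, it is not in the counts of genes tested.

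Of the alternative pathway, Cfb (factor B) was low on all arrays, with 4.26 and 4.16 in LLC high cells, against 4.40 and 4.27 in LLC low cells, and 4.44 and 4.32 in colon26 high cells, against 4.84 and 4.98 in colon26 low cells. No array reached 5, and the groups did not overlap. In a fit with no filter its change was −0.13 in LLC (adjusted p = 0.79) and −0.53 in colon26 (95% interval −0.90 to −0.15, adjusted p = 0.21), neither of which passed. Cfp, properdin, which stabilises the convertase of this pathway, was the only listed gene of this arm above the filter and did not pass in either line (colon26 change 0.11, adjusted p = 0.79).

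Serping1, the C1 inhibitor, which blocks C1r and C1s, was lower in high cells of both lines. It had 3.70 and 4.31 in LLC high cells, against 5.39 and 5.35 in LLC low cells, and 4.60 and 5.34 in colon26 high cells, against 7.57 and 6.37 in colon26 low cells. The groups did not overlap, and the colon26 pair changes of −2.97 and −1.03 differed more than those of LLC, −1.70 and −1.04. Serping1 fell, with a change of −1.37 in LLC (SE 0.37, 2.58-fold lower, limma adjusted p = 0.038) and −2.0 in colon26 (SE 0.37, 4.00-fold lower, adjusted p = 0.012), and its difference between lines did not pass (0.63, adjusted p = 0.61). The LLC call was lost without the LLC pair numbered 1 (−1.04, 0.16) and the colon26 call without either colon26 pair (−1.03, 0.12, and −2.97, 0.062). Clu, clusterin, a soluble regulator of the terminal complex, fell by 1.04 in LLC (adjusted p = 0.015) and changed by −0.20 in colon26 (0.69), the LLC call being lost without the LLC pair numbered 2 (−0.59, 0.69) or either colon26 pair (0.085).

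C3ar1, the C3a receptor found on myeloid cells, was read by 3 probe sets, all lower in high cells in all 4 pairs. The brightest, 1419482_at, had 4.69 and 4.88 in LLC high cells, against 5.29 and 5.42 in LLC low cells, and 5.05 and 4.99 in colon26 high cells, against 6.47 and 5.84 in colon26 low cells. The groups did not overlap, and the LLC arrays all lay near the filter. By this probe set C3ar1 fell by 1.13 in colon26 (SE 0.20, 2.19-fold lower, adjusted p = 0.0095), and the LLC change of −0.56 did not pass (95% interval −1.0 to −0.13, adjusted p = 0.099). As its own unit, 1419483_at changed by −1.28 in LLC (adjusted p = 0.034) and −2.0 in colon26 (0.012), and 1442082_at by −0.75 (0.16) and −1.96 (0.010), so the LLC call depended on the probe set. The colon26 call of C3ar1 was lost without the colon26 pair numbered 1 (−0.85, adjusted p = 0.081) or 2 (−1.42, 0.092).

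The promoter of C3ar1, on the minus strand of chromosome 6, is shown as that of the receptor. It held the AP-1 letters TGANTCA 22 bases before the start and TATAAA 235 bases before it, both in capitals. These letters occur in 6.75% and 12.4% of promoters. The STAT letters TTCNNNGAA, present in 7.02%, were in none of the windows of C1qb, C1qc, C1s1 and C3ar1, and GAGGAA was in neither that of C1s1 nor that of C3ar1.
C3ar1, chr6:122856158-122856407: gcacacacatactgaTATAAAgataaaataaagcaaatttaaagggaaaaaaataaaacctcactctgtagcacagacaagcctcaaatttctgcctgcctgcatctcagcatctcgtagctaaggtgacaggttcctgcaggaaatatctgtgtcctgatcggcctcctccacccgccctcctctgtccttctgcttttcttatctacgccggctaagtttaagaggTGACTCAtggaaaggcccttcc

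Among the other receptors of complement proteins, Cd93, a receptor-like protein of endothelial and myeloid cells, fell by 1.67 in LLC (adjusted p = 0.0044) and fell by 2.34 in colon26 (adjusted p = 0.0015). Its colon26 call was lost without either colon26 pair (adjusted p = 0.071 and 0.065). Itgb2, the beta chain of complement receptors 3 and 4, had 8.42 and 7.98 in LLC high cells, against 7.96 and 7.88 in LLC low cells, and 4.53 and 4.65 in colon26 high cells, against 6.29 and 5.78 in colon26 low cells. Itgb2 fell by 1.45 in colon26 (adjusted p = 0.0036), did not pass in LLC (0.27, 0.47), and differed between the lines (1.72, 0.024), but the colon26 call (0.075 and 0.092) and the difference (0.13 and 0.25) were lost without either colon26 pair, and the difference also with the LLC pair numbered 1 left out (0.060) or with no filter (0.057). Lrp1, a scavenger receptor, fell in LLC (−1.12, adjusted p = 0.0084) and did not pass in colon26 (0.0074, 0.99), nor did its difference between lines (0.13). The LLC call of Lrp1 was lost without the LLC pair numbered 2 (0.42) or either colon26 pair (0.059).

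**Figure D4:**
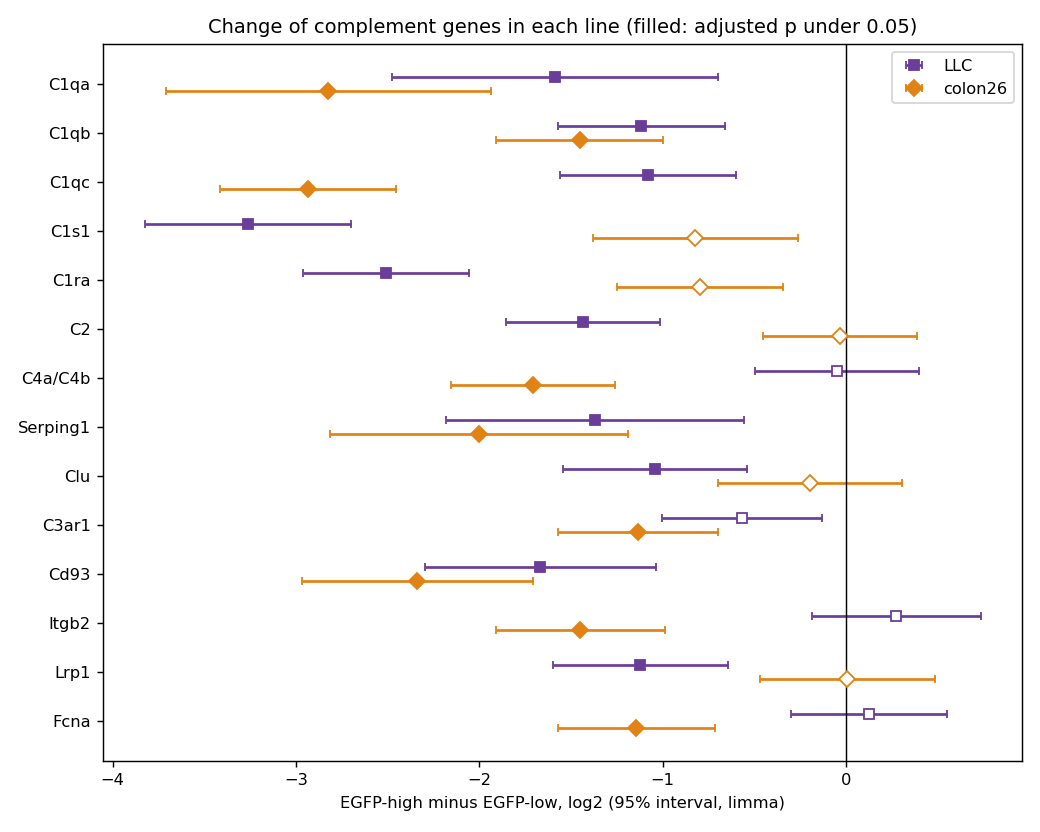
Change (horizontal axis, EGFP-high minus EGFP-low, log2) of complement genes (rows) in LLC (squares) and colon26 (diamonds), with limma 95% intervals; filled symbols have an adjusted p under 0.05, and C4a/C4b comes from the fit of each probe set. C1s1, C1ra and C2 lie further left in LLC, and C1qc, C4a/C4b and Itgb2 in colon26, with differences between lines that passed. Fcna also lies further left in colon26, but its difference between lines did not pass (1.27, limma adjusted p = 0.055). Nor did those of the other genes shown.

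Of the 6 members tested, 5 fell in LLC (all but C3ar1), where 6.04% of all genes tested fell, and 5 fell in colon26 (all but C1s1), where 1.58% did. Over the mean of both lines all 6 of the tested members fell, against 5.57% of genes. No support is drawn from these counts, because 4 of the 6, namely C1qa, C1qc, Serping1 and C3ar1, had fewer than 2 of 4 high arrays above the filter and so entered the test through low cells. With no filter, 3 of the 7 genes with their own probe set fell in LLC (C1qb, C1qc and C1s1), against 3.16% of all 18193 genes, and 5 fell in colon26 (C1qa, C1qb, C1qc, Serping1 and C3ar1), against 0.792%. With each probe set as its own unit, 6.07% of probe sets fell in LLC and 0.874% in colon26. There 5 of the member symbols had a probe set that fell in LLC and 6 in colon26, C4a/C4b included. In LLC these did not include Serping1 (limma adjusted p = 0.0502) but did include C3ar1, by 1419483_at (0.034). Without the pair as a block no member passed in either line or over both, although an unadjusted p under 0.05 was found for 4 members in LLC, 5 in colon26 and 6 over the mean of both.

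The wider complement list held 46 further genes, of which 37 were named on the array and 20 were tested. None rose in either line, while of all 12177 genes tested only 607 rose in LLC and 266 in colon26. In LLC 5 fell (C1ra, C2, Clu, Cd93 and Lrp1), against 6.04% of all genes. In colon26 3 fell (Cd93, Itgb2 and Fcna), against 1.58%. The median change of the 20 was 0.01 in LLC, against 0.04 for all genes, and −0.17 in colon26, against 0.08. Fcna, ficolin A, a lectin-pathway recognition protein made by macrophages, fell by 1.14 in colon26 (adjusted p = 0.0083, lost without either colon26 pair, 0.088 and 0.28) and did not pass in LLC (0.13, 0.75). The 4 membrane regulators tested, Cd46, Cd59a, Cr1l and Susd4, passed in neither line.

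Between lines, C1s1 was the only one of the 6 tested genes to pass in both sorts. In EGFP-high cells C1s1 was 2.15 higher in LLC than in colon26 (4.43-fold, limma adjusted p = 0.0028), and in EGFP-low cells 4.59 higher (24.0-fold, adjusted p = 4.7e-05). By group mean it was 6.11 ± 0.36 in LLC high and 9.37 ± 0.40 in LLC low cells, and 3.96 ± 0.01 in colon26 high and 4.78 ± 0.82 in colon26 low cells (SD, n = 2 each). The order from the top was thus LLC low, LLC high, colon26 low and colon26 high, and the colon26 groups did not differ beyond the test.

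C1qa, C1qc, Serping1 and C3ar1 were highest in colon26 low cells, while C1qb had near-equal means of 6.98 ± 0.10 in LLC low and 6.80 ± 0.59 in colon26 low cells (SD, n = 2 each). C1qc averaged 4.26 ± 0.06 in LLC high and 5.34 ± 0.64 in LLC low cells, and 4.03 ± 0.32 in colon26 high and 6.96 ± 0.23 in colon26 low cells (SD, n = 2 each). For C1qc colon26 low cells came first and LLC low cells next, and the high groups of LLC and colon26 did not differ beyond the test (0.23, adjusted p = 0.43). In EGFP-low cells C1qc was 1.62 lower in LLC than in colon26 (adjusted p = 6.5e-04), C1qa 1.63 lower (0.016), Serping1 1.6 lower (0.014) and C3ar1 0.80 lower (0.021), whereas C1qb did not differ beyond the test (0.17, 0.58). That gave 5 of 6 members passing in low cells and 1 in high cells, where 46.2% and 39.2% of all genes passed in either direction. In the low cells C1qa was lost without the colon26 array numbered 2 (adjusted p = 0.15) or the LLC array numbered 1 (0.11), Serping1 without the colon26 array numbered 1 (0.059) or the LLC array numbered 2 (0.071), and C3ar1 without the colon26 array numbered 1 (0.086) or either LLC array (0.13 and 0.055).

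Lists of cell type markers were read beside these genes, and not all of them fell. For every list the share of all genes tested that fell was 6.04% in LLC and 1.58% in colon26. Of 16 macrophage markers 14 were tested: 8 fell in LLC (median change −0.96) and 13 in colon26 (median −2.71). Their mean log2 signal per array was 5.49 and 5.59 in LLC high cells, against 6.63 and 6.65 in LLC low cells, and 5.88 and 5.62 in colon26 high cells, against 8.73 and 8.02 in colon26 low cells. The macrophage markers were thus highest in colon26 low cells, as were C1qa, C1qc, Serping1 and C3ar1. This peak was shared by other cell types. The mean signals of the endothelial, neutrophil and T and NK cell lists were also higher on both colon26 low arrays than on any other array. Those of the fibroblast and hepatocyte lists were not. Of the defining macrophage markers, Csf1r had 6.66 and 6.18 in LLC high cells, against 8.30 and 7.77 in LLC low cells, and 7.18 and 5.98 in colon26 high cells, against 10.28 and 8.94 in colon26 low cells, and Adgre1 lay between 5.43 and 6.57 on all arrays. Adgre1 did not pass in LLC (0.01, limma adjusted p = 0.98) and fell by 0.75 in colon26 (0.043). Cd68 fell by 1.39 in LLC (0.0035) and by 2.14 in colon26 (5.8e-04). Cd14, another macrophage marker, passed in neither line (0.44, 0.15, and −0.04, 0.93).

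Of the 16 fibroblast markers, all tested, 12 fell in LLC (median change −1.99) and 6 in colon26 (median −0.44), against 6.04% and 1.58% of all genes. Their mean signal was 6.68 and 6.90 in LLC high cells, against 8.71 and 9.06 in LLC low cells, and 8.20 and 8.47 in colon26 high cells, against 9.75 and 9.0 in colon26 low cells. Col1a2, a collagen chain, had 5.34 and 6.51 in LLC high cells, against 9.90 and 8.76 in LLC low cells, but 13.17 and 13.19 in colon26 high cells, against 13.65 and 13.40 in colon26 low cells. In both colon26 sorts its signal thus lay above that of every LLC array. Pdgfra, a defining fibroblast marker, was also bright in EGFP-high cells, with 11.64 and 11.15 in LLC and 12.21 and 11.91 in colon26. Between the low groups the fibroblast markers went both ways, with 3 of 16 higher in LLC (Aspn, Dpt and Lum) and 8 higher in colon26. Of all 12177 genes tested, 2556 were higher in LLC there and 3065 higher in colon26. Aspn averaged 8.22 ± 1.42 in LLC low cells and 4.15 ± 0.42 in colon26 low cells (SD, n = 2 each). Endothelial markers fell in 0 of 9 tested in LLC (median −0.34) and 4 in colon26 (median −1.09), and neutrophil markers in 2 of 5 (−0.12) and 3 (−0.88). None of 4 T and NK cell markers (0.14 and −0.22) or of 3 hepatocyte markers (0.14 and −0.36) passed. The part of any of these cell types in the complement values was not tested, and in such bulk RNA fewer cells of a type and less RNA per cell cannot be told apart.

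Over the 8 arrays, which share lines, sorts and numbers, the genes most like each member were found by Pearson correlation. C1s1 was most like C1ra (r = 0.990), Prkd1 (0.988) and Itgb3 (0.987). C1qc was most like Fcer1g (0.974), a macrophage marker, Igfbp3 (0.971) and Gpx3 (0.968), and C1qb most like Htra3 (0.973), Lcp1 (0.966) and Ctsc (0.963). C1qa was most like the endothelial markers Esam (0.935) and Cldn5 (0.932) and Nlgn2 (0.930). C3ar1 was most like Fcgr2b (0.990), Lrrc15 (0.989) and Ms4a6d (0.983), and Serping1 like Plek (0.972), Col15a1 (0.971) and Lrrc15 (0.969). Among members r was 0.925 between C1qa and C1qc, 0.966 between Serping1 and C3ar1 and 0.0057 between C1s1 and C1qa. The C1q chains were not alike in this, since C1qb had r of 0.728 with C1qc, 0.551 with C1qa and 0.649 with C1s1.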

How the data were processed

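RNA of the sorted cells was labelled with biotin by the standard Affymetrix protocol, 1 colour per array, per the labels. The authors deposited log2 values made by RMA, per the submitters' processing notes; its software, version and options are not stated there. The description field of the colon26 samples speaks of LLC, but title, source and cell line give colon26, which was used. The members and lists were chosen with earlier results of these data known.

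Each gene was represented by its brightest probe set with 1 gene symbol (34945 of 45101; 932 had several symbols, 9160 none, 64 were controls), and a gene entered the test if 2 or more arrays had a signal over 5 (12177 genes). The tool was limma 3.58.1 (R 4.3.3), and p-values were adjusted over all genes by Benjamini-Hochberg at 0.05. For changes of high against low the block was the replicate number nested in the line. Contrasts of lines used the number as a block shared by the lines, since no line pairs with the other. High and low arrays of a number deviated together from their group means across genes (r = 0.887 in LLC, 0.838 in colon26); with 2 arrays a group this is the same value for both numbers. The scripts were tested on simulated data.

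Named were every member, the genes of the wider complement list passing in LLC or colon26, the 3 genes most correlated with each member, and Gins1; Cfp, the 4 membrane regulators and the marker genes given by value were named after their values were seen. RefSeq promoters (GRCm38.p6) held 4 members; C1qa, C4b, Cfb and Serping1 are named only. The alternatives are given in the closing section. Figures used matplotlib 3.10.9 in Python 3.11.15. The number of arrays limits the precision. An item withheld for evaluation is not reported here.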

Additional observations from a re-analysis of the deposited data

Results flagged for a closer look

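The high minus low change differed between the lines for 2 members and for the shared C4a/C4b probe set, by limma's test of the difference itself. The LLC change minus the colon26 change was −2.44 for C1s1 (adjusted p = 0.013), from −3.26 in LLC and −0.82 in colon26. It was 1.85 for C1qc (adjusted p = 0.021), from −1.08 in LLC and −2.93 in colon26, and 1.66 for the C4a/C4b probe set (adjusted p = 0.037), from −0.05 in LLC and −1.71 in colon26. All 3 calls were lost without either colon26 pair. Groups of 2 arrays are too small to look for single arrays that stand apart.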

How the results depend on the processing

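Counts are of the 6 members passing in a comparison, with all 6 changes of high against low below 0 in each line. Over both lines 6 passed, 2 with a filter at 7, which leaves fewer genes, and 0 with no replicate block; leaving out a pair gave 5 to 6. In colon26 5 passed, 1 with the filter at 7, 0 with no replicate block, 2 after quantile normalization, 3 with a replicate block shared by the lines and 3 with trend and robust moderation; leaving out a pair gave 0 (6 at an unadjusted p under 0.05) to 5. In LLC 5 passed, 2 with the filter at 7, 0 with no replicate block, and 3 with no filter, with the line's own arrays, after quantile normalization, with the shared block or with trend and robust moderation; leaving out a pair gave 2 to 4. For the difference between lines 2 passed, 1 with the filter at 7 or none, and 0 with no replicate block, after quantile normalization or with the shared block (2, 3 and 2 at an unadjusted p under 0.05); leaving out a pair gave 0 (3 or 5 unadjusted) to 2. Between lines 1 passed in EGFP-high cells, 2 with each probe set as its own unit and 1 to 3 leaving out an array, and 5 passed in EGFP-low cells, 1 with the filter at 7, 2 with no replicate block and 3 to 5 leaving out an array. The call of C1s1 in LLC was lost only without the block (adjusted p = 0.13). Without the block the spread between the numbers enters the error; otherwise the cause was not tested. Differences that did not pass turned sign for C1qa in EGFP-high cells (0.30 without the colon26 high array numbered 1, range with an array left out −1.09 to 0.30), for C1qb in EGFP-low cells (−0.45 with the mean of its probe sets, −0.23 without the colon26 low array numbered 2, −0.07 without the LLC low array numbered 2, range with an array left out −0.23 to 0.58), for C1qc in EGFP-high cells (−0.0044 without the LLC high array numbered 1, range −0.0044 to 0.47) and for Serping1 between the changes of the lines (−0.34 without the colon26 pair numbered 1, range −0.34 to 1.6). C3ar1 in EGFP-low cells was lost after median centring (−0.62, adjusted p = 0.070), which moved the median of all genes there to 0.11, against −0.07 as deposited. Signals under a log2 value of 5 limit the size of the changes of C1qa, C1qc, C3ar1 and Serping1 in high cells, and of C1s1 and C1ra in colon26. The differences between lines of these genes, C1s1, C1qc and C1ra among them, are affected by this as well.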
